A study of Homo sapiens with 4 samples.

Results

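The genes described here move cargo along microtubules, bind microtubules, or prepare and nucleate tubulin. They were chosen as a list of 53 symbols, without the mitotic kinesins and without the alpha and beta tubulin genes. All 53 symbols matched 1 gene ID each among the 25798 gene IDs of the count table, and all 53 passed the filter on low counts. They were measured by RNA sequencing in SW1990, a cell line from a human pancreatic cancer that is labelled wild type. There were 4 libraries, 2 from cells kept for 48 h in 100 nM erianin and 2 from control cells kept as long in DMSO, its solvent. Erianin is a bibenzyl from Dendrobium orchids that is known to bind tubulin, and the study's title names the kinases AKT and ASK1 as its targets. All 4 libraries come from this single line, and no other line was sequenced among them.

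Microtubules are hollow polymers of alpha and beta tubulin that grow and shrink at their ends. Most kinesins carry cargo toward the plus end, and cytoplasmic dynein, with its activator dynactin, carries it toward the minus end. Other proteins stabilise the polymer, follow its growing end, cut it, start new filaments at a ring of gamma-tubulin, or fold and hold free tubulin dimers. Drugs that bind tubulin are known to alter the pool of free dimers, which cells sense through TTC5, a factor that guides the decay of tubulin messages.

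The libraries held 59923935 to 63336545 counts each. All 7 ductal epithelial markers looked up (KRT7, KRT8, KRT18, KRT19, EPCAM, CDH1 and MUC1) were at 1 FPKM or more, with a summed level of 6869 to 7591 FPKM. FPKM is the deposited unit that scales a count by transcript length and library size. The 4 endocrine markers had no row in the table, and the acinar markers summed to at most 0.13 FPKM. Of 4 neuron markers, which include TUBB3, 2 were at 1 FPKM or more, with a sum of 56.6 to 59.8 FPKM. Of 4 blood cell markers 1 was, with a sum of 100.7 to 112.4 FPKM, and the 3 endothelial markers summed to at most 0.4 FPKM. Fibroblast markers summed to 6.96 FPKM in DMSO replicate 1 and to 1.9 to 2.51 FPKM in the other libraries, and their part in the results was not tested. The erianin libraries differed from each other: as a median over the 53 genes, erianin replicate 1 lay at -0.02 on the log2 scale from the mean of both DMSO libraries, while the second library of that group lay at -0.29. Values are therefore given library by library for the genes described one by one.

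Differences between the groups went in part with the base composition of the transcripts, at a Spearman correlation of 0.53 with GC content over the 53 genes. Stretches of 4 coding sequences are shown to make that composition visible. Each is 60 bases from 1 coding exon, picked for a GC content nearest to that of the whole coding sequence, from the GENCODE release 29 transcripts (GRCh38). Capitals mark G and C. KIF5B and MAPRE1 are among the members that lay below DMSO, and KLC2 and MAP1S are among those that lay above it. Other members went against this trend, such as KIF13B (54.6% GC in its longest transcript), with a log2 fold change of -0.53. TBCA (32.6%) and DYNLT3 (34.6%) had log2 fold changes of 0.01 and 0.12.
KIF5B, chr10:32048468-32048527, minus strand, exon 2 of 26: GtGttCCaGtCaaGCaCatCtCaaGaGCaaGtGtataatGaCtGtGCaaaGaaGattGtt
MAPRE1, chr20:32825929-32825988, plus strand, exon 2 of 7: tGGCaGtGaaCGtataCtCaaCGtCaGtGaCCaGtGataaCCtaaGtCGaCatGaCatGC
KLC2, chr11:66258597-66258656, plus strand, exon 2 of 16: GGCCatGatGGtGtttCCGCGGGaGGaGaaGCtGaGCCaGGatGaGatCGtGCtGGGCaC
MAP1S, chr19:17719538-17719597, plus strand, exon 1 of 7: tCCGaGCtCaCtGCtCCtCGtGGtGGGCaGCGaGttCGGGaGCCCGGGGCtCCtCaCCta
The GC content of the whole coding sequence was 40.4% for KIF5B, 46.8% for MAPRE1, 61.7% for KLC2 and 68.2% for MAP1S.

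Levels per length spanned a wide range. Of the 53 genes, 5 had a mean over the 4 libraries of 100 FPKM or more, 18 lay from 10 to below 100, 20 from 1 to below 10, and 10 below 1. The highest were 2 small dynein subunits. DYNLRB1, a roadblock light chain that helps dynein bind cargo, was at 461 and 485 FPKM in DMSO and at 492 and 516 FPKM in erianin. DYNLL1, the LC8 light chain, which also serves as a dimerisation hub for many other proteins, was at 363 and 352 FPKM in DMSO and at 362 and 350 FPKM in erianin. Next came the free-tubulin proteins TBCB, TBCA and STMN1, where TBCA overlapped with each of the other two in range and TBCB lay above STMN1 in each library. TBCB ran from 133 to 162 FPKM, TBCA from 118 to 136 FPKM and STMN1 from 113 to 128 FPKM. At the other end, the neuronal kinesin gene KIF5C was at 0.01 to 0.03 FPKM, from 6 to 15 counts a library. In the order of levels, 40 of the 52 neighbouring pairs overlapped over the 4 libraries.

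**Figure D1:**
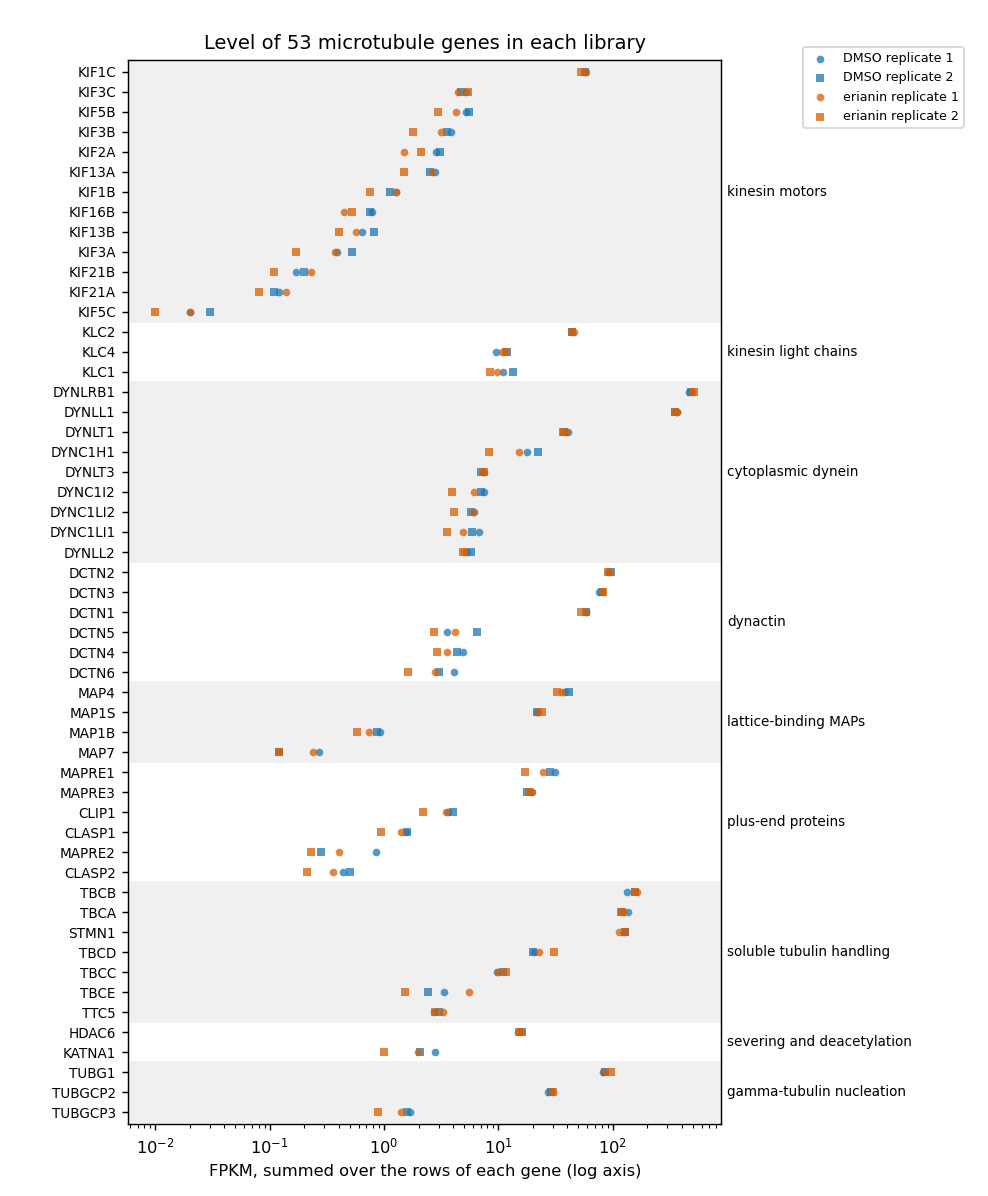
FPKM summed per gene (log axis) for each of the 53 genes, in rows grouped by role, with 1 point per library (circle, replicate 1; square, replicate 2; blue, DMSO; orange, erianin). Levels run from 0.01 to 0.03 FPKM for KIF5C to 461 to 516 FPKM for DYNLRB1.

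Copies within a family differed in level to unlike degrees. DYNLL1 exceeded its near twin DYNLL2 by 61.3 to 72.8 times in FPKM over the 4 libraries. Of the end-binding proteins, which ride the growing plus end, MAPRE1 was at 17.1 to 31.4 FPKM and MAPRE3 at 17.8 to 19.5 FPKM, while MAPRE2 was below 1 FPKM in each library. The ratio of MAPRE1 to MAPRE3 was 1.61 and 1.60 in DMSO and 1.28 and 0.918 in erianin, so the groups did not overlap. Such a gap was not particular to this pair. For KLC2 to KLC1 the ratio was 3.98 and 3.28 in DMSO and 4.71 and 5.24 in erianin. For DYNC1LI1 to DYNC1LI2 it was 1.09 and 1.02 in DMSO and 0.819 and 0.877 in erianin. The groups also lay apart for DYNLL1 to DYNLL2, CLASP1 to CLASP2 and DYNLT1 to DYNLT3, while for MAPRE1 to MAPRE2 they overlapped. How often the groups lie apart over all gene pairs was not computed. In FPKM, KLC1 sums 22 rows, and its value is uncertain, as described below. KLC2 led the kinesin light chains at 43.8 to 45.8 FPKM, against 8.42 to 13.5 FPKM for KLC1 and 9.5 to 11.8 FPKM for KLC4. KIF1C, a fast kinesin of vesicle transport, led the kinesins at 53 to 57.8 FPKM, followed at a distance by KIF3C at 4.4 to 5.42 FPKM and KIF5B at 2.98 to 5.53 FPKM, whose ranges overlapped. The light intermediate chains DYNC1LI1 and DYNC1LI2 were close to equal, at a ratio of 0.819 to 1.09.

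The comparison of erianin with DMSO asked whether the messages of this transport and tubulin machinery differ after exposure to the compound. None of the 53 genes passed edgeR's quasi-likelihood test at an adjusted p under 0.05 over all 17090 genes tested, of which 0.041% passed, and the smallest adjusted p of a member was 0.575. DESeq2 called 0 members (0.123% of all genes) and limma-voom 0 (0% of all genes), with 8 and 11 members at an unadjusted p under 0.05, against 8.84% and 9.79% of all genes. At an unadjusted p under 0.05 there were 10 members, or 18.9%, against 8.1% of all genes tested. All 10 lay below DMSO, a direction in which 5.89% of all genes had such a p. They were KIF2A, KIF3B, KIF5B, KIF13B, DYNC1H1, DYNC1I2, DYNC1LI1, DCTN4, MAPRE1 and CLASP1. Shares were higher among the 8033 genes whose mean log2 CPM (scaled counts) reached 3. Of these genes, 10.8% had such a p and 7.58% had one below DMSO. Of the 41 members among them, 9 had such a p (22%), all 9 below DMSO. The median log2 fold change over the 53 genes was -0.09, against -0.01 over all genes tested, and 51 of 53 lay within 1.5-fold. Below 0 lay 30 of the 53 (56.6%), against 51.3% of all genes tested. With library totals alone as the scale, 41 of the 53 and 10865 of the 17090 genes lay below 0. That scale moved the median of all genes from -0.01 to -0.11.

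In CPM, counts scaled to the normalised size of each library, both erianin libraries lay below both DMSO libraries for 22 members (41.5%), which held for 24.4% of all genes tested. Both lay above for 9 members (17%), against 21.7% of all genes, and for the other 22 the groups overlapped. Of the 22 lower members, 20 had their lowest value in erianin replicate 2. For 40 of the 53 genes that library lay on the same side of the DMSO mean as erianin replicate 1 and farther from it. Leaving out 1 library changed the counts. Without erianin replicate 1, which leaves 1 erianin library that is assumed to vary like the DMSO pair, edgeR called 19 of 53 members (35.8%), against 17.5% of all genes. Of these, 15 were lower, a direction called in 10.2% of all genes, and 4 were higher, called in 7.3%. The largest of the 15 was KATNA1 at a log2 fold change of -1.10, followed by KIF3B at -0.87, and the 4 higher genes were MAP1S at 0.33, TUBG1 at 0.30, DYNLRB1 at 0.29 and TUBGCP2 at 0.28. It called 0 members when erianin replicate 2 was left out (0.132% of all genes), or the first DMSO library (0.345%), or the second (0.404%). At an unadjusted p under 0.05 there were 33 members when the first erianin library was left out (32.2% of all genes) and 6 when the second was (7.59%). Leaving out the first DMSO library gave 1 member (3.27%), and leaving out the second gave 3 (4.7%).

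**Figure D2:**
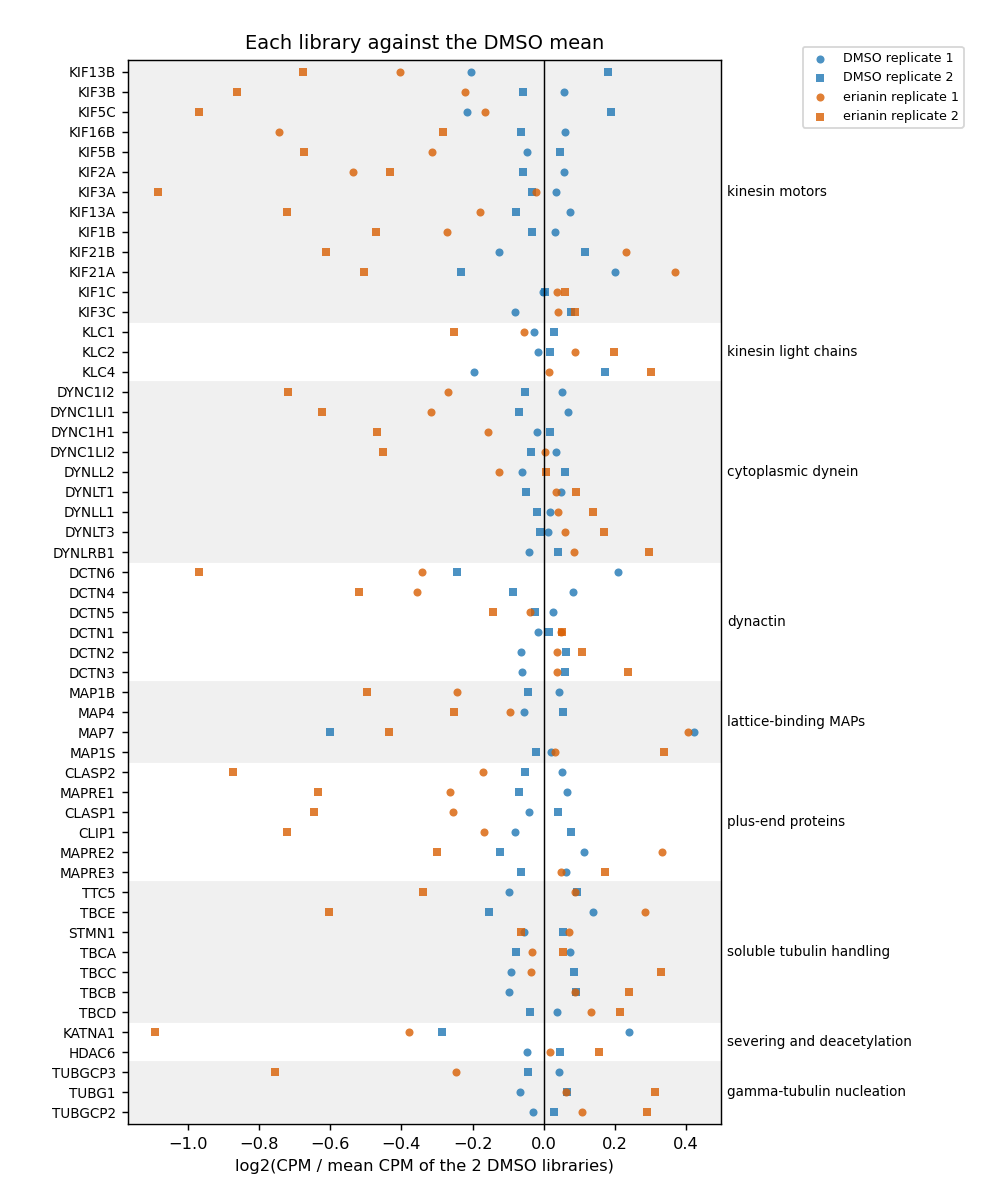
Log2 ratio of each library's CPM to the mean CPM of the 2 DMSO libraries, for the 53 genes in rows grouped by role (circle, replicate 1; square, replicate 2; blue, DMSO; orange, erianin). For 20 of the 22 genes whose erianin points both lie left of both DMSO points, the leftmost point is erianin replicate 2.

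Among the 13 kinesin motor genes, the median log2 fold change was -0.45 and 11 lay below 0. In edgeR 0 passed the adjusted test and 4 had an unadjusted p under 0.05, all 4 below 0. Of all genes tested, 51.3% lay below 0 and 5.89% had such a p below 0. With each library's trend in GC content and length removed, the median of the 13 was -0.20, and 1 had such a p. KIF5B (GRCh38, chromosome 10, 32009010 to 32056431, minus strand) encodes the ubiquitous heavy chain of conventional kinesin, which moves mitochondria, vesicles and messenger RNA. It was at 34.3 and 36.5 CPM in DMSO and at 28.5 and 22.2 CPM in erianin. Both erianin libraries lay below both DMSO libraries, with a log2 fold change of -0.48 ± 0.16 (SE; edgeR, adjusted p = 0.575). KIF3B (chromosome 20, 32277664 to 32335011, plus strand), a partner in the heterodimeric kinesin-2 motor that builds cilia, was at 26.4 and 24.4 CPM in DMSO and at 21.8 and 14 CPM in erianin. Its log2 fold change was -0.51 ± 0.21 (SE), and the erianin replicates were farther apart than the DMSO replicates. With erianin replicate 2 alone the log2 fold change was -0.68 for KIF5B and -0.87 for KIF3B, and with erianin replicate 1 alone it was -0.31 and -0.22. KIF2A (chromosome 5, 62306162 to 62537249, plus strand) does not walk but takes tubulin off microtubule ends. It was at 13.4 and 12.4 CPM in DMSO and at 8.92 and 9.59 CPM in erianin, a log2 fold change of -0.48 ± 0.16 (SE). Here erianin replicate 1, not replicate 2, was the lowest library. KIF2A shares 428 bases of exon on the same strand with IPO11, whose log2 fold change was -0.47, so KIF2A is uncertain.

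KIF13B, a kinesin-3 motor of membrane cargo, was at 6.21 and 8.11 CPM in DMSO and at 5.42 and 4.48 CPM in erianin, a log2 fold change of -0.53 ± 0.23 (SE). KIF1C, the most abundant kinesin of the list, was at 506 and 509 CPM in DMSO and at 521 and 529 CPM in erianin. Its groups did not overlap, yet the log2 fold change was only 0.05 ± 0.09 (SE), and it was -0.05 with library totals alone as the scale. The 8 motors not described one by one (KIF1B, KIF3A, KIF3C, KIF5C, KIF13A, KIF16B, KIF21A and KIF21B) had log2 fold changes from -0.50 to 0.06, with unadjusted p-values of 0.0565 or more.

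The kinesin light chains couple conventional kinesin to its cargo. KLC2 (chromosome 11, 66257294 to 66267860, plus strand) was at 143 and 146 CPM in DMSO and at 153 and 165 CPM in erianin, a log2 fold change of 0.14 ± 0.09 (SE). KLC4 was at 25.4 and 32.8 CPM in DMSO and at 29.4 and 35.9 CPM in erianin, so its groups overlapped. KLC1 was at 50.9 and 53 CPM in DMSO and at 50 and 43.6 CPM in erianin, a log2 fold change of -0.15 ± 0.12 (SE). KLC1 shares 5756 bases of exon with XRCC3, on the opposite strand, and KLC4 overlaps MRPL2 and CUL7. The strandedness of the counting is not given in the sources used here, so the values of KLC1 and KLC4 are uncertain.

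Of the 9 dynein genes, 3 had an unadjusted p under 0.05, all 3 below 0, a direction in which 5.89% of all genes tested had such a p. With the trend in GC content and length removed, 1 of the 9 had such a p. Their median log2 fold change was -0.06, and 0.02 with that trend removed. DYNC1H1 (chromosome 14, 101964510 to 102056443, plus strand), the motor heavy chain, was at 196 and 201 CPM in DMSO and at 178 and 143 CPM in erianin. Its log2 fold change was -0.30 ± 0.12 (SE; edgeR, adjusted p = 0.575), and it was -0.48 with erianin replicate 2 alone and -0.16 with erianin replicate 1 alone. DYNC1I2, an intermediate chain that holds dynactin, was at 22.1 and 20.5 CPM in DMSO and at 17.7 and 13 CPM in erianin, a log2 fold change of -0.48 ± 0.18 (SE). DYNC1LI1, a light intermediate chain that binds cargo adaptors, was at 17.3 and 15.7 CPM in DMSO and at 13.2 and 10.7 CPM in erianin, a log2 fold change of -0.46 ± 0.17 (SE). In these 3 genes all erianin values lay below all DMSO values. With erianin replicate 2 alone the log2 fold change was -0.73 for DYNC1I2 and -0.63 for DYNC1LI1, and with erianin replicate 1 alone it was -0.27 and -0.31.

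The small light chains did not show that order. DYNLRB1 (chromosome 20, 34516409 to 34540958, plus strand) was at 347 and 367 CPM in DMSO and at 378 and 438 CPM in erianin, a log2 fold change of 0.19 ± 0.10 (SE; edgeR, adjusted p = 0.576). Both erianin libraries lay above both DMSO libraries. The other light chains (DYNLL1, DYNLL2, DYNLT1 and DYNLT3) and the second light intermediate chain DYNC1LI2 had log2 fold changes from -0.21 to 0.12. DYNC1I2 has a processed copy, DYNC1I2P1, that held 11.9% as many counts as the gene itself and had a log2 fold change of 0.01.

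Dynactin joins dynein to its cargo and switches it on. DCTN1 (chromosome 2, 74361154 to 74392087, minus strand), the p150Glued subunit that itself grips microtubules, was at 277 and 283 CPM in DMSO and at 290 and 291 CPM in erianin. DCTN2, the dynamitin subunit, was at 196 and 214 CPM in DMSO and at 210 and 221 CPM in erianin, and DCTN3 was at 69.9 and 76 CPM against 74.9 and 85.9 CPM. Their log2 fold changes were 0.05 ± 0.09, 0.07 ± 0.09 and 0.14 ± 0.11 (SE), each smaller than 1.5 times its error, and those of DCTN1 and DCTN2 lay below 0 with library totals alone. The subunits at the pointed end of the dynactin filament, DCTN4, DCTN5 and DCTN6, were the less abundant ones. DCTN4 (chromosome 5, 150708440 to 150759109, minus strand) was at 22.6 and 20.1 CPM in DMSO and at 16.7 and 14.9 CPM in erianin, a log2 fold change of -0.44 ± 0.15 (SE). DCTN6 was at 4.8 and 3.51 CPM in DMSO and at 3.28 and 2.12 CPM in erianin, a log2 fold change of -0.62 ± 0.31 (SE). It shares exon sequence with LEPROTL1, which held 358% as many counts, so DCTN6 is uncertain. DCTN5 had a log2 fold change of -0.09.

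The proteins that lie along the microtubule wall varied. MAP4 (chromosome 3, 47850690 to 48089272, minus strand), the main stabilising protein of non-neuronal cells, was at 223 and 241 CPM in DMSO and at 217 and 195 CPM in erianin, a log2 fold change of -0.17 ± 0.10 (SE). MAP1B, best known from growing axons, was at 12.1 and 11.4 CPM in DMSO and at 9.94 and 8.33 CPM in erianin, a log2 fold change of -0.36 ± 0.17 (SE). MAP1S (chromosome 19, 17719242 to 17734516, plus strand) was at 79.9 and 77.6 CPM in DMSO and at 80.5 and 99.5 CPM in erianin, a log2 fold change of 0.19 ± 0.12 (SE). The value of erianin replicate 1 for MAP1S was close to DMSO, and the difference came from erianin replicate 2. MAP7, which recruits kinesin-1, was at 1.3 and 0.641 CPM in DMSO and at 1.29 and 0.72 CPM in erianin, where the replicates differed more than the groups.

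Of the 6 plus-end genes, 4 lay below 0, as did 51.3% of all genes tested. Their median log2 fold change was -0.43, and -0.18 with the trend in GC content and length removed. MAPRE1 (chromosome 20, 32819893 to 32850405, plus strand) encodes EB1, the protein that recruits most other factors to growing ends. It was at 90.1 and 82 CPM in DMSO and at 71.7 and 55.5 CPM in erianin. Both erianin libraries lay below both DMSO libraries, with a log2 fold change of -0.44 ± 0.14 (SE; edgeR, unadjusted p = 0.0148, the smallest among the members, adjusted p = 0.575). It was -0.64 with erianin replicate 2 alone (edgeR, adjusted p = 0.00683) and -0.26 with erianin replicate 1 alone (adjusted p = 0.638). CLASP1, which rescues shrinking ends, was at 13.3 and 14 CPM in DMSO and at 11.4 and 8.73 CPM in erianin, and its paralog CLASP2 was at 3.51 and 3.27 CPM against 3.01 and 1.85 CPM. Their log2 fold changes were -0.44 ± 0.18 and -0.48 ± 0.31 (SE). CLIP1, a linker of membranes to plus ends, was at 21.6 and 24 CPM in DMSO and at 20.3 and 13.8 CPM in erianin, a log2 fold change of -0.42 ± 0.20 (SE). With erianin replicate 2 alone CLASP1 was at -0.65 and CLIP1 at -0.73, and with erianin replicate 1 alone they were at -0.25 and -0.17. MAPRE2 and MAPRE3 had log2 fold changes of 0.05 and 0.11.

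Genes that handle soluble tubulin had log2 fold changes from -0.11 to 0.17 in all 7. STMN1 (chromosome 1, 25884181 to 25906991, minus strand), whose product stathmin sequesters tubulin dimers, was at 220 and 237 CPM in DMSO and at 240 and 218 CPM in erianin, a log2 fold change of 0.00 ± 0.10 (SE). TTC5 (chromosome 14, 20256558 to 20305994, minus strand) was at 13.8 and 15.8 CPM in DMSO and at 15.7 and 11.7 CPM in erianin. Its log2 fold change of -0.11 ± 0.19 (SE) was 0.09 without erianin replicate 2 and 0.15 with the trend in GC content and length removed, so it has no stable sign.

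The tubulin cofactors assemble the alpha and beta dimer after chaperonin folding. TBCD was at 155 and 147 CPM in DMSO and at 165 and 175 CPM in erianin, a log2 fold change of 0.17 ± 0.09 (SE), and its groups did not overlap. It shares 787 bases of exon with B3GNTL1 on the opposite strand. B3GNTL1 held 13.6% as many counts and had a log2 fold change of 0.10, so TBCD is uncertain. TBCB was at 141 and 161 CPM in DMSO and at 160 and 178 CPM in erianin, and TBCC was at 17.6 and 19.8 CPM against 18.2 and 23.5 CPM. Their log2 fold changes were 0.17 ± 0.11 and 0.16 ± 0.17 (SE), with overlapping groups. TBCB overlaps POLR2I on the opposite strand, which had an unadjusted p of 0.017 and a log2 fold change of 0.38, so TBCB is uncertain. TBCE was at 13.5 and 11.1 CPM in DMSO and at 15 and 8.1 CPM in erianin. The log2 fold change of this member, -0.09 ± 0.28 (SE), averaged erianin libraries on opposite sides of DMSO. It was -0.61 with erianin replicate 2 alone and 0.29 with erianin replicate 1 alone. Another gene ID of the same name in the annotation, ENSG00000285053, shares 2232 bases of its exons and held 43.3% as many counts. That second entry was at 5.89 and 5.58 CPM in DMSO and at 5.29 and 3.96 CPM in erianin. Its log2 fold change was -0.31 ± 0.23 (SE), so TBCE is uncertain. TBCA, which holds free beta tubulin, had a log2 fold change of 0.01.

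The remaining genes cut, modify or nucleate microtubules. KATNA1, the catalytic subunit of the severing enzyme katanin, was at 5.92 and 4.12 CPM in DMSO and at 3.86 and 2.36 CPM in erianin. Its log2 fold change of -0.69 ± 0.32 (SE) was the lowest of the 53, with DMSO replicates almost as far apart as the groups. It was -1.10 with erianin replicate 2 alone, -0.38 with erianin replicate 1 alone and -0.40 without DMSO replicate 1. HDAC6 (chromosome X, 48801377 to 48824982, plus strand), the deacetylase of alpha tubulin, was at 69 and 73.8 CPM in DMSO and at 72.3 and 79.5 CPM in erianin, a log2 fold change of 0.09 ± 0.11 (SE).

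TUBG1 (chromosome 17, 42609676 to 42615234, plus strand) encodes gamma-tubulin itself. It was at 153 and 168 CPM in DMSO and at 168 and 200 CPM in erianin, a log2 fold change of 0.19 ± 0.11 (SE). It shares 879 nucleotides with its paralog TUBG2, which had a log2 fold change of 0.13, so reads may have been divided between them. TUBGCP2 and TUBGCP3 encode ring proteins. TUBGCP2 was at 114 and 119 CPM in DMSO and at 125 and 142 CPM in erianin, a log2 fold change of 0.20 ± 0.10 (SE), and TUBGCP3 was at 6.32 and 5.95 CPM against 5.17 and 3.64 CPM, a log2 fold change of -0.48 ± 0.24 (SE). With erianin replicate 2 alone TUBGCP3 was at -0.76 and TUBG1 at 0.30, and with erianin replicate 1 alone they were at -0.25 and 0.064. Groups did not overlap in either ring gene, and TUBGCP2 shares 896 bases of exon with ZNF511 on the opposite strand.

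The log2 fold changes of the members were higher where the GC content of the longest annotated transcript was higher. The Spearman correlation was 0.53 with GC content and -0.35 with transcript length over the 53 genes, a description of genes that share the same 4 libraries. By library, the distance from the DMSO mean had a correlation with GC content of 0.31 in erianin replicate 1 and 0.56 in erianin replicate 2. For comparison, the gap between the 2 DMSO libraries, which had no erianin, had one of 0.50. Below 44% GC the median log2 fold change was -0.42 in 19 members and -0.25 in the 1894 genes of that range whose mean log2 CPM reached 3, with 14 of the 19 members and 1571 of the 1894 genes below 0. Groups lay apart with erianin lower in 47.4% of these members and 55.9% of these genes. From 44% to below 50% the medians were -0.42 in 13 members and -0.11 in 1654 genes. In that range erianin was lower with groups apart in 69.2% of the members and 38.1% of the genes. From 50% to below 56% the medians were 0.06 in 11 members and 0.07 in 1757 genes, and at 56% or more they were 0.15 in 10 members and 0.16 in 2688 genes. Erianin was lower with groups apart in 27.3% of members and 12.2% of genes from 50% to below 56%. At 56% or more it was so in 10% of members and 2.31% of genes.

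**Figure D3:**
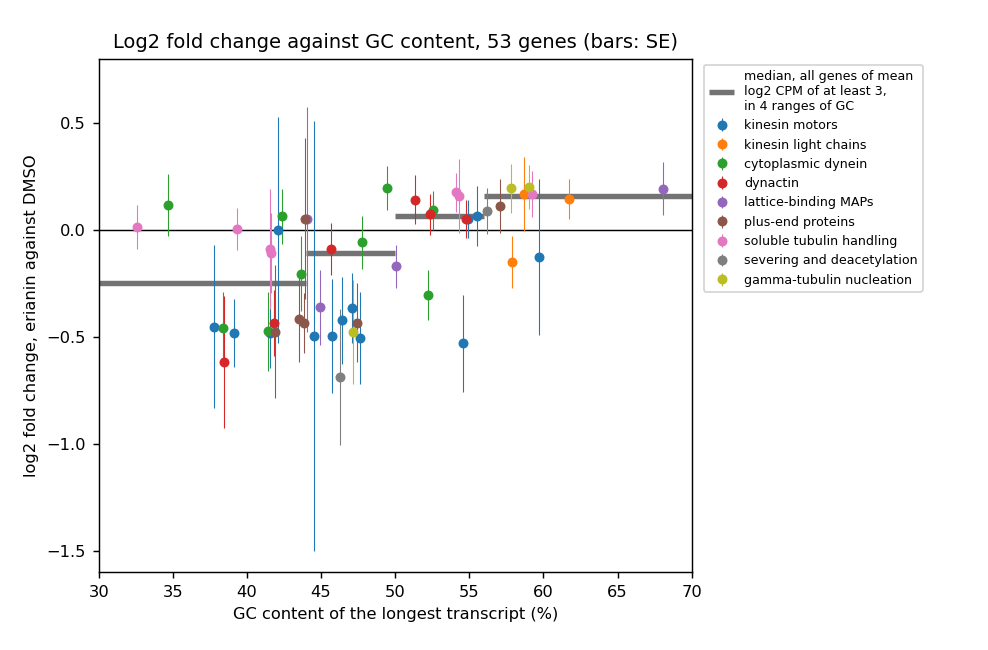
Log2 fold change of erianin against DMSO (bars, SE from edgeR) against the GC content of the longest transcript in percent, with 1 point per gene coloured by role. Grey lines mark the median of all genes whose mean log2 CPM reached 3, in 4 ranges of GC content. Both the points and the lines are lower at low GC content, with the genes below 44% at a median of -0.42 and those at 56% or more at 0.15.

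With each library's trend in GC content and length removed, the correlation with GC content over the members was 0.07, and the median log2 fold change was -0.02. Of the 10 members with an unadjusted p under 0.05, all had a smaller log2 fold change then, and 3 still had such a p. These were MAPRE1 at -0.27 ± 0.09 (SE; edgeR, unadjusted p = 0.0159, adjusted p = 0.738), DYNC1H1 at -0.19 ± 0.08 (SE) and KIF13B at -0.50 ± 0.19 (SE). STMN1 at 0.22 ± 0.08 (SE) and TBCD at 0.19 ± 0.08 (SE) had one only with the trend removed. The 5 are 9.43% of the members, against 6.48% of all genes, and 0 members passed the adjusted test, as did 0.0293% of all genes. KIF5B was at -0.20, KIF2A at -0.25, DYNC1LI1 at -0.20, DCTN4 at -0.18, MAP1B at -0.07 and MAP4 at -0.04. Among members above 0 as tested, TUBG1 was at 0.006, KLC2 at 0.004 and MAP1S at 0.03, while DYNLRB1 was at 0.17 and TUBGCP2 at 0.10. The sign turned in 10 of 53 genes. Without erianin replicate 1 as well, edgeR called 4 members, or 7.55%, against 3.82% of all genes: KIF3B, DYNC1H1 and MAPRE1 lower and DYNLRB1 higher. It called 0 members when erianin replicate 2 was left out (0.138% of all genes), or the first DMSO library (0.0667%), or the second (0.205%).

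**Figure D4:**
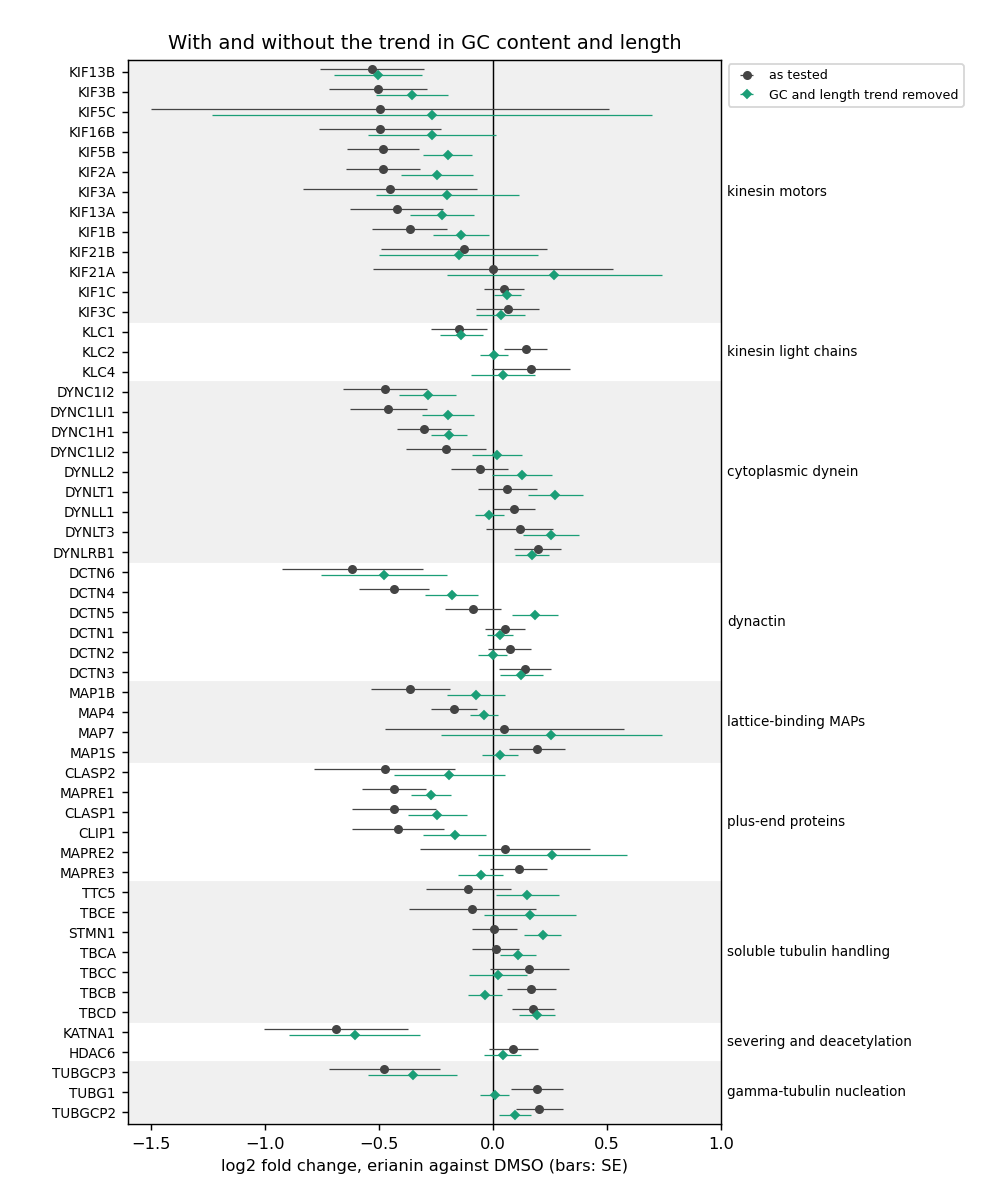
Log2 fold change of erianin against DMSO with its SE for the 53 genes, as tested (dark circles) and with each library's trend in GC content and length removed (green diamonds), in rows grouped by role. Values such as that of KIF5B move from -0.48 to -0.20, while KIF13B stays near -0.5 (from -0.53 to -0.50).

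Further genes of the same machinery came from lists that do not overlap with the members, and 0 of the genes tested in them passed the adjusted edgeR test in either direction. Of 24 dynein regulators, cargo adaptors and other dynactin subunits, the median log2 fold change was -0.07, and 14 lay below 0, 2 of them at an unadjusted p under 0.05. TRAK2, an adaptor of mitochondria, had the smallest p, at -0.54 ± 0.19 (SE). Of 30 other microtubule-binding proteins, 20 lay below 0 with a median of -0.11, 4 of them at an unadjusted p under 0.05, and 1 above 0 had such a p. MACF1, a giant linker of actin and microtubules, was at 93.3 and 90.4 CPM in DMSO and at 73.1 and 57.2 CPM in erianin, with a log2 fold change of -0.49 ± 0.13 (SE; -0.21 with the trend removed). Among 20 partners of gamma-tubulin and centrosome genes, 13 lay below 0, with a median of -0.20 and 0.00 with the trend removed. In this list 3 genes below 0 and 1 above 0 had an unadjusted p under 0.05. Of all genes tested, 5.89% had such a p below 0 and 2.21% above 0. HAUS6, a subunit of augmin, which seeds microtubules on existing ones, was at -0.78 ± 0.24 (SE).

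Of 13 other kinesins and their partners tested, 7 lay above 0 and 6 below, with a median of 0.03 and KIFC3 at 0.17 ± 0.09 (SE). The 14 tubulin-modifying enzymes tested had 7 on each side and a median of 0.01, with AGTPBP1, which removes glutamates from tubulin tails, at -0.45 ± 0.22 (SE). Of 6 severing genes tested, 3 lay above 0 and 3 below, with a median of -0.03. The 9 tubulin folding partners had a median of 0.01, with TBCEL at -0.54 ± 0.22 (SE). Among the nearest groups outside this machinery, 12 of 13 mitotic kinesins lay below 0, with a median of -0.38, while all 10 alpha and beta tubulin genes tested lay above 0, with a median of 0.12, and 6 of the 10 with library totals alone. With the trend removed these medians were -0.22 and -0.02. Whether any of these groups differs from the 53 members was not tested.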

How the data were processed

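Transcript levels were measured by RNA sequencing in 4 libraries of SW1990 cells, 2 per group, grouped by sample title. The labels do not say whether replicates were separate cultures. The p-values therefore describe the spread of these libraries alone, and that spread may be technical. Per the submitters' processing notes, fastp, STAR, StringTie 2.2.1, featureCounts 2.0.1 and GRCh38 were used, with no role or order. What annotation, strandedness and treatment of multiply matching reads applied was not given in the sources used here. As raw values, the authors deposited estimated counts, whole and without normalisation, in 107429 unnamed rows. The FPKM values were deposited by the authors for the same rows, per the file headers. Plain counts per gene had been planned for. Rows look apportioned between overlapping transcripts, so they were treated as estimated counts and summed per gene ID, as were FPKM values.

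Counts were tested with edgeR 4.0.16 (R 4.3.3): TMM factors, filterByExpr (minimum count 10, leaving 17090 genes), quasi-likelihood F test with 2 residual degrees of freedom, and Benjamini-Hochberg adjustment at 0.05. SE was obtained from the log2 fold change and the F statistic. CPM uses TMM-adjusted totals. FPKM was used for levels, since it is per length. A gene name table gave the symbols, and GENCODE release 29 gave positions (1-based) and the longest transcript's length and GC content. The trend with GC content and length was fitted per library by natural splines with 5 degrees of freedom, using genes whose mean log2 CPM reached 3, and entered as an offset. Shared sequence (200 nucleotides at 95% identity) was found with BLAST+ 2.17.0. Alternatives used DESeq2 1.42.0 and limma 3.58.1, and FPKM on a log2(FPKM + pseudocount) scale. The fits were tested on simulated data.

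The members and lists were chosen with earlier results of these data known. Genes given library by library were any past the threshold, the 4 with the smallest p and the most abundant in each role group, 9 fixed by name, and the member with the widest replicate gap among those at 1 FPKM or more. Others, such as DYNLL1, TBCA and MAPRE3, were named for their level or to complete a family, after their values had been seen.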

Additional observations from a re-analysis of the deposited data

How the results depend on the processing

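The count of 7 genes past the threshold among all genes became 2 with library totals alone, 21 with DESeq2, 0 with limma-voom (1673 at an unadjusted p under 0.05), and 2 with FPKM at either pseudocount (0.1 or 1). It ran from 24 (without erianin replicate 2) to 3166 (without erianin replicate 1), and with the trend in GC content and length removed as well, an alternative chosen after seeing the data, 12 and 37 without each DMSO library and 692 and 25 without each erianin library. The count of 0 members past the threshold ran from 0 to 19 over these fits, and from 0 to 4 with the trend removed. The members' median log2 fold change of -0.09 ran from -0.31 to -0.019 when 1 library was left out, and from -0.05 to 0.00 with the trend removed. Library totals alone moved the median of all genes from -0.01 to -0.11. The cause of these shifts was not tested.

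The replicate numbers are only shared between the groups: deviations of same-numbered libraries correlated at 0.222 over 7986 genes, and 2 pairs cannot show a pairing. With the replicate block, 334 genes (1.95%) and 1 member passed (MAPRE1, log2 fold change -0.45 ± 0.12, SE, edgeR adjusted p = 0.0288, against 0.575 without it). With the replicate block and the trend removed, 14 genes and 0 members passed.

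Of 720 log2 fold changes, those of the 36 genes given library by library under 20 alternatives, 637 kept direction and side of the threshold, 22 passed it and 61 changed sign. With library totals alone the sign changed in KIF1C (-0.051), DCTN1 (-0.049), DCTN2 (-0.028), MAP7 (-0.040), STMN1 (-0.091) and HDAC6 (-0.013). On the FPKM scale it changed with a pseudocount of 0.1 in KIF1C (-0.052), DCTN1 (-0.072), DCTN2 (-0.029), MAP7 (-0.061), STMN1 (-0.077), TBCE (0.046) and TTC5 (0.066), and with a pseudocount of 1 in KIF1C (-0.051), DCTN1 (-0.071), DCTN2 (-0.029), MAP7 (-0.017), STMN1 (-0.076), TBCE (0.081) and TTC5 (0.051). With the trend removed it changed in DCTN2 (-0.0031), TBCB (-0.036), TBCE (0.16) and TTC5 (0.15), and with the replicate block as well in DCTN2 (-0.0024), TBCB (-0.035), TBCE (0.14) and TTC5 (0.16). Leaving out DMSO replicate 1 changed the sign of KLC4 (-0.0072), STMN1 (-0.051) and TBCE (0.061), and with the trend removed that of KLC2 (-0.0037), KLC4 (-0.11), DCTN2 (-0.046), TBCB (-0.11), TBCC (-0.043), TBCE (0.27), TTC5 (0.016) and TUBG1 (-0.037). Leaving out DMSO replicate 2 changed the sign of MAP7 (-0.37), and with the trend removed that of MAP4 (0.0041), MAP7 (-0.15), TBCE (0.056) and TTC5 (0.29). Leaving out erianin replicate 1 changed the sign of MAP7 (-0.44) and STMN1 (-0.074), and with the trend removed that of DCTN2 (-0.0049), MAP7 (-0.063), TBCB (-0.080) and TTC5 (0.089). Leaving out erianin replicate 2 changed the sign of TBCC (-0.035), TBCE (0.29) and TTC5 (0.089), and with the trend removed that of KLC4 (-0.060), DCTN2 (-0.0051), MAP1S (-0.045), TBCC (-0.095), TBCE (0.42), TTC5 (0.21), HDAC6 (-0.025) and TUBG1 (-0.020). Over the 4 fits that leave out 1 library, values ran for KLC4 from -0.0072 to 0.36, MAP7 from -0.44 to 0.65, STMN1 from -0.074 to 0.072, TBCC from -0.035 to 0.32, TBCE from -0.61 to 0.29 and for TTC5 from -0.35 to 0.089.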

Other observations

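The count table holds several unnamed rows for most of the members, and in some genes the largest row differed between libraries. Of the 48 members with more than 1 row, 16 (33.3%) had a different largest row in at least 1 library. Among genes with more than 1 row whose mean log2 CPM reached 3, the share was 25.4% of 7397 genes and 30.6% of 36 members. For DCTN1, row 4 held 11952 and 4883 counts in DMSO and 0 in both erianin libraries, while row 7 held 6203 and 12391 counts in DMSO and 18359 and 16006 in erianin. For STMN1, row 4 held 8745 and 2998 counts in DMSO and 33 and 29 in erianin, and row 5 held 396 and 5797 counts in DMSO and 8071 and 251 in erianin. TBCD had a row with 6466 counts in erianin replicate 2 and 0 in the other libraries. HDAC6, with 36 rows, had its largest share in rows 11 and 20 in the DMSO libraries and in rows 22 and 11 in the erianin libraries. Since rows have no names, which transcripts they stand for was not analysed here, and no test was made of single rows.

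The gene sums in FPKM carry this on, since rows of different length weigh reads differently. DYNC1H1, with 33 rows, was at 17.8 and 22 FPKM in DMSO and at 15.1 and 8.34 FPKM in erianin, a wider gap than in its CPM. The 5 members with a single row (KIF3B, KIF5B, DYNLL2, MAPRE1 and TBCC) have no such uncertainty. Of these, 3 (KIF3B, KIF5B and MAPRE1) are among the 10 with an unadjusted p under 0.05 in edgeR. With the trend in GC content and length removed, only MAPRE1 of the 3 still had such a p. DYNLL2 and TBCC had log2 fold changes of -0.06 and 0.16. The share with such a p among all genes with a single row was not computed.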
